A study of Mus musculus with 16 samples.

Results

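The expression of 38 genes of the nucleolus and of ribosome biogenesis that are known as targets of the transcription factor MYC was examined in mouse mammary tumors with or without a gene trap in *Resf1*. The members were taken from a list of gene symbols, and all 38 had a row in the table of 23609 genes. Every tumor came from an animal carrying the MMTV-PyMT transgene, in which the MMTV promoter drives the polyoma middle T oncogene in the mammary epithelium. The wildtype animals had no gene trap, and the gene trap animals were their *Resf1* +/- littermates, which inherited 1 intact allele. In a separate *Resf1* knockout crossed to MMTV-PyMT, the paper reports that tumors of many animals had lost the wildtype allele. Whether the gene trap tumors used here had lost it was not tested. The trap is a lentiviral insertion in the first exon of *Resf1* that expresses an EGFP-Cre fusion, and it was crossed from a C57BL/6 background to FVB/MMTV-PyMT mice. The labels name 8 tumors per genotype and give no age. The columns of 5 tumors of each genotype could be matched by name and were used. They are estimated counts per gene that the authors had already normalized between tumors, so the depth of each tumor is unknown.

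Ribosomes are assembled in the nucleolus, where a long precursor rRNA is transcribed, chemically modified under the guidance of small nucleolar RNAs, cut, and packed with proteins into a small and a large subunit. MYC binds the promoters of many genes of this process, often at the sequence CACGTG, known as the E-box, and raises their transcription together with that of ribosomal proteins and of enzymes of polyamine synthesis. Tumor cells with high MYC activity often have enlarged nucleoli. MYC was not manipulated in these tumors, so the members are described as known MYC targets and not as genes shown to respond to MYC here.

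None of the 38 members differed between the genotypes beyond the spread between tumors. Means were higher in gene trap tumors for 33 members and lower for 5, but the differences were small, with a median of 0.06 on the log2 scale and a range from -0.11 for *Odc1* to 0.37 for *Gar1*. The members varied together across tumors. Gene trap replicate 4 was above the mean of the 10 tumors for all 38 members, and gene trap replicate 2 or 4 held the highest value of 30 members. With 1 tumor left out at a time, the number of members with a higher mean in gene trap tumors lay between 23 (without gene trap replicate 4) and 35 (without gene trap replicate 3 or 5), and it was 27 without gene trap replicate 2.

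Promoter sequences were available for 32 of the members in a RefSeq table of mouse promoters (build GRCm38.p6), each window covering 250 bases before to 50 bases after a gene start. The E-box CACGTG, which reads the same on both strands, occurred in the windows of 6 members (18.75%), *Grwd1*, *Imp4*, *Nop2*, *Pes1*, *Utp20* and *Wdr43*. Counted by window, this was 6 of 34 (17.6%), against 7.15% of all 32851 windows in the table. The related sequence CACGCG, or CGCGTG on the other strand, occurred in 10 members (31.25%), or 29.4% of their windows, against 9.27% of all windows. A match describes the letters only and does not show that MYC binds there. Both sequences contain CG, and the comparison with all windows was not matched for base composition, whose part was not tested. Windows of 4 of the 6 members with an E-box are shown as examples. The E-box lies before the gene start in *Nop2* and after it in *Grwd1*, *Pes1* and *Utp20*. The windows lie at chr7:45830740-45831039 on the minus strand for *Grwd1* and at chr6:125131633-125131932 on the plus strand for *Nop2*. Those of *Pes1* and *Utp20* lie at chr11:3963725-3964024 on the plus strand and at chr10:88826765-88827064 on the minus strand. Each is written 5′ to 3′ along its gene, with the E-box in capitals. Counted from 1 at the first base of the window, the E-box starts at base 285 in *Grwd1*, 191 in *Nop2*, 253 in *Pes1* and 288 in *Utp20*.
Grwd1: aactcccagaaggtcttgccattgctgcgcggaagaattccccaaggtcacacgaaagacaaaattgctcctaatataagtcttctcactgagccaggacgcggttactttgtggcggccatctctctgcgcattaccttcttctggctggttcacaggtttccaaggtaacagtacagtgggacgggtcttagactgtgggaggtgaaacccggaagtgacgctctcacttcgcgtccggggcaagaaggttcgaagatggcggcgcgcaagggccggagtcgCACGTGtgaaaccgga
Nop2: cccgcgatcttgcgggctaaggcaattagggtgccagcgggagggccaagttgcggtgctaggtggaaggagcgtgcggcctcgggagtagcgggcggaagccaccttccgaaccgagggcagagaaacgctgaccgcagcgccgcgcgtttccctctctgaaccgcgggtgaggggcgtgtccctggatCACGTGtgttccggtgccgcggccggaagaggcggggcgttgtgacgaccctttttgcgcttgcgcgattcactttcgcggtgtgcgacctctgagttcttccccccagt
Pes1: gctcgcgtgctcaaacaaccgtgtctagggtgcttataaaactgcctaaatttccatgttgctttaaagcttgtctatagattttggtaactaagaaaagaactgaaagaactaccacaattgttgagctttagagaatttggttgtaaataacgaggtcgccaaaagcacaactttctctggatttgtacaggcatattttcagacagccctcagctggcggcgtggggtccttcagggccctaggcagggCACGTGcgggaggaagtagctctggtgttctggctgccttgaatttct
Utp20: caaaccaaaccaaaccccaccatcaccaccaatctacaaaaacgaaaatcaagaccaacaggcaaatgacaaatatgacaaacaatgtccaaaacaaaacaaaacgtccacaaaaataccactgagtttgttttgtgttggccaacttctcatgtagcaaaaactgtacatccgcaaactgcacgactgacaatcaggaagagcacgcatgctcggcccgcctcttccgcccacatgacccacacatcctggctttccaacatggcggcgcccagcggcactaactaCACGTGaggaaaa

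The tumors were checked for the trapped gene and for their cell types first. *Resf1* had normalized values of 4215, 4397, 3881, 4487 and 3517 in wildtype replicates 1 to 5 and of 4029, 3066, 3686, 3392 and 3409 in gene trap replicates 1 to 5, so that the genotypes overlapped. The gene trap mean was lower, by a difference of -0.22 on the log2 scale (95% confidence interval from limma -0.42 to -0.02). The limma p was 0.0313 unadjusted and 0.9997 adjusted, and the exact permutation p was 0.0635. With 1 tumor left out the difference ranged from -0.28 (without wildtype replicate 5) to -0.17 (without gene trap replicate 2). Mammary epithelial markers (*Epcam*, *Krt8*, *Krt18*, *Krt19* and *Cdh1*) were present in every tumor, with a summed value of 70816 to 93983 in wildtype and 74455 to 97410 in gene trap tumors. Among the 10 tumors gene trap replicate 2 was unlike the rest, with a score of 91.8 on the first principal component against -18.6 to -4.78 in the others, and a column total of 42153600 against 31995100 to 37121400. Of 21034 genes tested with limma, 0 (0%) reached 0.05 after Benjamini-Hochberg adjustment, and 479 (2.28%) had an unadjusted p under 0.05.

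*Myc* itself was similar in the genotypes. It had 1166, 1656, 1396, 1556 and 1356 normalized counts in wildtype replicates 1 to 5 and 1389, 1616, 1436, 1732 and 1272 in gene trap replicates 1 to 5. The highest value was in gene trap replicate 4 and the lowest in wildtype replicate 1, and the groups overlapped throughout most of their range. The difference, as gene trap minus wildtype on the log2(value + 1) scale used for all differences below, was 0.06 (95% confidence interval -0.18 to 0.30, exact permutation p = 0.587). The sign of this difference changed when wildtype replicate 1 was left out (-0.0060). In *Max*, which encodes the binding partner of MYC, the wildtype value was 1459 ± 67.4 (SD, n = 5) and the gene trap value 1459 ± 64.7 (SD, n = 5). *Mycl*, a MYC paralog, was far lower, at 32.6 to 72.5 in wildtype tumors and 30.8 to 224 in gene trap tumors.

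The number of members that passed the test was 0 at an adjusted p under 0.05 (0% of all genes) and 0 at an unadjusted p under 0.05 (2.28% of all genes). The smallest unadjusted p was 0.0509, for *Nop56*. In no member were the genotypes separated without overlap, which occurred for 0.528% of all genes. The 33 members with a higher mean in gene trap tumors were 86.8% of the list, where 51.4% of all genes were higher. Because the members varied together, they do not count as separate observations of a direction. The median difference was 0.06 over the members and 0.005 over all genes, and the median standard error of a member was 0.094. With 1 tumor left out the median over the members was lowest without gene trap replicate 4 (0.023) and gene trap replicate 2 (0.031), and highest without wildtype replicate 2 (0.10) and gene trap replicate 3 (0.095). Scaling each tumor to its column total lowered the count of higher members to 27 and that of all genes to 43.4%, with a median of 0.03 over the members and -0.02 over all genes. In bulk tumors a smaller share of the cells that express a gene and less RNA per cell cannot be told apart.

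**Figure D1:**
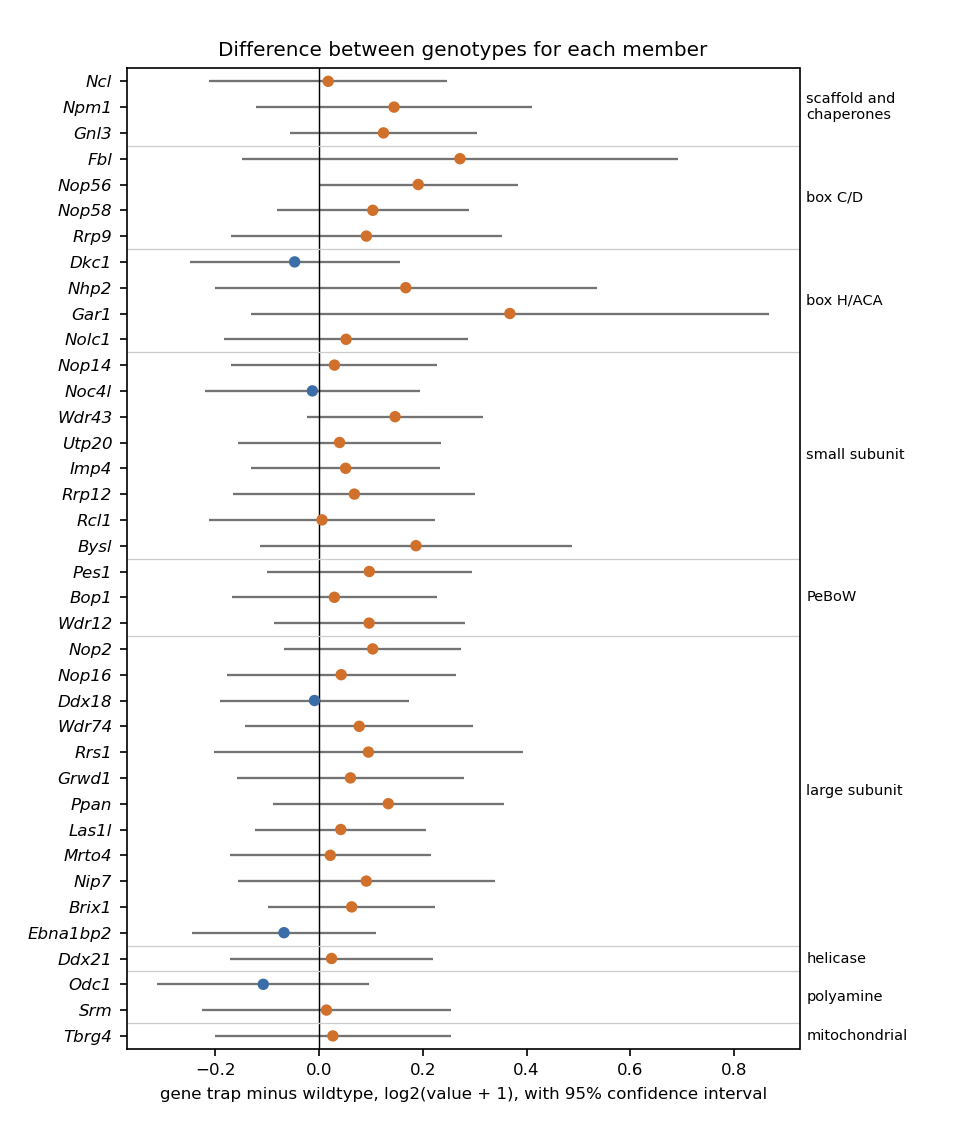
Difference between genotypes for each of the 38 members, as gene trap minus wildtype on the log2(value + 1) scale (horizontal axis), with members on the vertical axis grouped by role. Points are the differences of 5 against 5 tumors (orange above 0, blue below 0) and lines are 95% confidence intervals from limma, each of which includes 0.

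The 3 nucleolar scaffold and chaperone proteins had a median difference of 0.12. *Ncl* encodes nucleolin, an RNA-binding protein of rRNA transcription and early processing. Its normalized values were 10609, 13896, 12400, 11325 and 12927 in wildtype replicates 1 to 5 and 11911, 14699, 11435, 13487 and 10525 in gene trap replicates 1 to 5. The highest and the lowest of the 10 values both came from gene trap tumors, and the difference was 0.02 (interval -0.21 to 0.25, exact p = 0.865). Its sign turned when gene trap replicate 2 was left out (-0.046) and under scaling to the column total (-0.010). *Npm1* encodes nucleophosmin, a chaperone that holds the outer layer of the nucleolus together. It had 9458, 11936, 9419, 8624 and 11358 in wildtype and 10518, 14202, 10000, 11828 and 9722 in gene trap replicates 1 to 5. Gene trap replicate 2 was the highest and wildtype replicate 4 the lowest, and the difference of 0.14 (interval -0.12 to 0.41, exact p = 0.317) was 0.06 without gene trap replicate 2 and 0.088 without wildtype replicate 4. *Gnl3* encodes nucleostemin, a nucleolar GTPase of large subunit assembly. It had 2120, 2158, 2161, 1798 and 2228 in wildtype and 2267, 2300, 2027, 2596 and 2218 in gene trap replicates 1 to 5. Wildtype replicate 4 was well below the other wildtype tumors and gene trap replicate 4 was the highest of all, with a difference of 0.12 (interval -0.06 to 0.30, exact p = 0.183). This was 0.070 without wildtype replicate 4 and 0.076 without gene trap replicate 4. An overlapping gene on the opposite strand, *Pbrm1*, could share reads with *Gnl3* if strand was not used in counting.

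The box C/D ribonucleoproteins add methyl groups to rRNA and, with the U3 RNA, guide its first cuts. All 4 members of this group had higher means in gene trap tumors, with a median difference of 0.15. *Fbl* encodes fibrillarin, the methyltransferase of these particles. In wildtype replicates 1 to 5 it had 842, 1096, 1093, 1046 and 971, and in gene trap replicates 1 to 5 it had 943, 2157, 987, 1166 and 1122. The value in gene trap replicate 2 was far above all others, and of the other gene trap tumors 2 lay within the wildtype range and 2 above it. The difference was 0.27 (interval -0.15 to 0.69, exact p = 0.278) with that tumor and 0.06 (interval -0.15 to 0.28) without it. *Nop56*, a core protein of the same particles, had 2676, 2856, 2473, 2205 and 2741 in wildtype and 2834, 3031, 2783, 3400 and 2726 in gene trap replicates 1 to 5. Most gene trap values were at the top of the wildtype range, with gene trap replicate 4 highest and wildtype replicate 4 lowest. This difference, 0.19 (interval -0.00085 to 0.38, exact p = 0.0635), did not rest on gene trap replicate 2, as it was 0.18 without that tumor. It was 0.14 without gene trap replicate 4 and 0.13 without wildtype replicate 4. *Nop56* shares an opposite-strand overlap with *Idh3b*, and with the values of its 3 matching pseudogenes added the difference was 0.13. *Nop58*, the partner of *Nop56*, had means of 2870 ± 178 (SD, n = 5) in wildtype and 3095 ± 359 (SD, n = 5) in gene trap tumors. *Rrp9*, a protein of the U3 particle, had 539 ± 52.3 (SD, n = 5) and 578 ± 94.8 (SD, n = 5).

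The box H/ACA ribonucleoproteins convert uridines of rRNA to pseudouridine. *Dkc1* encodes dyskerin, their catalytic subunit, and was 1 of the 5 members with a lower mean in gene trap tumors. It had 1736, 1645, 1786, 1515 and 2024 in wildtype replicates 1 to 5 and 1733, 1591, 1533, 1960 and 1602 in gene trap replicates 1 to 5. Highest and lowest values were both from wildtype tumors, and the difference of -0.05 (interval -0.25 to 0.16, exact p = 0.603) became 0.0085 without wildtype replicate 5. *Gar1*, a structural protein of the particle, had 413, 498, 408, 426 and 403 in wildtype and 467, 1099, 454, 569 and 389 in gene trap replicates 1 to 5. As for *Fbl*, gene trap replicate 2 was far above the rest, and the lowest value was also from a gene trap tumor. The difference of *Gar1* was 0.37 (interval -0.13 to 0.87, exact p = 0.175), and 0.12 (interval -0.13 to 0.37) without gene trap replicate 2. The third core protein, *Nhp2*, was also highest in that tumor, at 2719 where the remaining tumors had 1364 to 2092, and its difference fell from 0.17 to 0.01 without it. *Nolc1*, a chaperone that accompanies both kinds of particle, had a wildtype mean of 2243 ± 238 (SD, n = 5) and a gene trap mean of 2336 ± 366 (SD, n = 5).

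The 8 members of small subunit assembly had differences between -0.01 and 0.19, with a median of 0.05. *Nop14*, *Noc4l*, *Wdr43*, *Utp20* and *Imp4* encode proteins of the processome, the large particle in which the small subunit is first cut and folded. *Wdr43* had the smallest p of this group, with 2844 ± 270 (SD, n = 5) in wildtype and 3141 ± 192 (SD, n = 5) in gene trap tumors (difference 0.15, interval -0.02 to 0.32, exact p = 0.0794). *Noc4l* was the lower member, with 669 ± 58.8 (SD, n = 5) and 664 ± 72.6 (SD, n = 5). *Utp20* was lowest in gene trap replicate 2, at 2147, and the remaining tumors had 2287 to 2865. *Bysl*, which acts in the late steps of the small subunit, had the largest difference of the group, 0.19 (interval -0.11 to 0.49), and 0.10 without gene trap replicate 2. It overlaps *Ccnd3* on the opposite strand. The means of *Nop14*, *Imp4*, *Rrp12* and *Rcl1* differed by 0.03, 0.05, 0.07 and 0.005.

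The PeBoW complex of *Pes1*, *Bop1* and *Wdr12* is needed to mature the rRNA of the large subunit. Its 3 genes had differences of 0.10, 0.03 and 0.10, each with an interval that included 0. *Pes1* had 2814 ± 332 (SD, n = 5) in wildtype and 3003 ± 271 (SD, n = 5) in gene trap tumors, with its highest value, 3393, in wildtype replicate 2. The 12 other members of large subunit assembly differed by -0.07 to 0.13, with a median of 0.06. *Ebna1bp2*, a scaffold protein of early large subunit particles, was the lowest of these. It had 1803, 2156, 1948, 1836 and 2001 in wildtype and 1782, 2009, 1634, 2052 and 1832 in gene trap replicates 1 to 5. The gene trap values spanned nearly the same range as the wildtype values, with wildtype replicate 2 the highest and gene trap replicate 3 the lowest (difference -0.07, interval -0.24 to 0.11, exact p = 0.413). Without wildtype replicate 2 the difference was -0.031, and without gene trap replicate 3 it was -0.022. *Ppan* had the largest difference of this group, with 1329 ± 97.3 (SD, n = 5) in wildtype and 1468 ± 221 (SD, n = 5) in gene trap tumors. *Ddx18*, an RNA helicase, was the other lower member, with 693 ± 11.8 (SD, n = 5) and 691 ± 72 (SD, n = 5). The other members, the rRNA methyltransferase *Nop2*, the nuclease subunit *Las1l*, and *Nop16*, *Wdr74*, *Rrs1*, *Grwd1*, *Mrto4*, *Nip7* and *Brix1*, were between 0.02 and 0.10 higher. The helicase *Ddx21*, which links transcription and processing of rRNA, differed by 0.02 (interval -0.17 to 0.22).

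Polyamines are small cations that bind RNA and are needed for protein synthesis, and their pathway is a long-known target of MYC. *Odc1* encodes ornithine decarboxylase, the rate-limiting enzyme, and was the member with the most negative difference. It had 1727, 1977, 1796, 2222 and 1630 in wildtype and 1657, 1663, 1796, 1951 and 1583 in gene trap replicates 1 to 5. Wildtype replicate 4 was the highest here, although it was the lowest tumor for 12 other members, and the difference was -0.11 (interval -0.31 to 0.10, exact p = 0.302). Without wildtype replicate 4 it was -0.043, and *Dkc1* (-0.096) and *Ebna1bp2* (-0.089) were then more negative. *Srm* encodes spermidine synthase. It had 904, 1223, 1149, 1049 and 1017 in wildtype and 1076, 969, 1013, 1360 and 990 in gene trap replicates 1 to 5. One tumor, gene trap replicate 4, was well above the others of its genotype, and the difference of 0.01 (interval -0.23 to 0.25, exact p = 0.913) turned to -0.07 without it. *Tbrg4*, a regulator of mitochondrial RNA and the only member that does not act in the nucleolus or in polyamine synthesis, had 1064 ± 159 (SD, n = 5) and 1078 ± 97.4 (SD, n = 5).

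Tumors of 1 genotype differed from each other, and the members followed a common pattern. For each tumor the median over the 38 members of the log2 deviation from each gene's mean was computed. It was -0.08, 0.11, -0.01, -0.11 and -0.05 in wildtype replicates 1 to 5 and -0.04, 0.15, -0.09, 0.19 and -0.07 in gene trap replicates 1 to 5. Thus 3 tumors, wildtype replicate 2 and gene trap replicates 2 and 4, were above 0.10, and the other 7 were below 0. The genotype means of this median differed by 0.054, and its SD within genotypes was 0.11. Gene trap replicate 2 held the highest value for 17 members and gene trap replicate 4 for 13, together 30 of 38, where these tumors held the highest value of 31.1% of all genes. The lowest value came from wildtype replicate 4 for 12 members (9.34% of all genes) and from wildtype replicate 1 for 8 (8.35% of all genes). Gene trap replicate 4 was above the mean for 38 of 38 members and for 52.2% of all genes, and this count was 38 under each of the 3 other scalings tried. The positions of the other tumors depended on the scaling. When each tumor was scaled to its column total, which is highest in gene trap replicate 2, the median over the members was -0.12 in that tumor. It was then 0.026 in wildtype replicate 2, 0.076 in wildtype replicate 5 and 0.086 in gene trap replicate 1, so that only gene trap replicate 4 (0.15) was above 0.10, and the count of members highest in gene trap replicate 2 or 4 was 20 (13.0% of all genes).

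**Figure D2:**
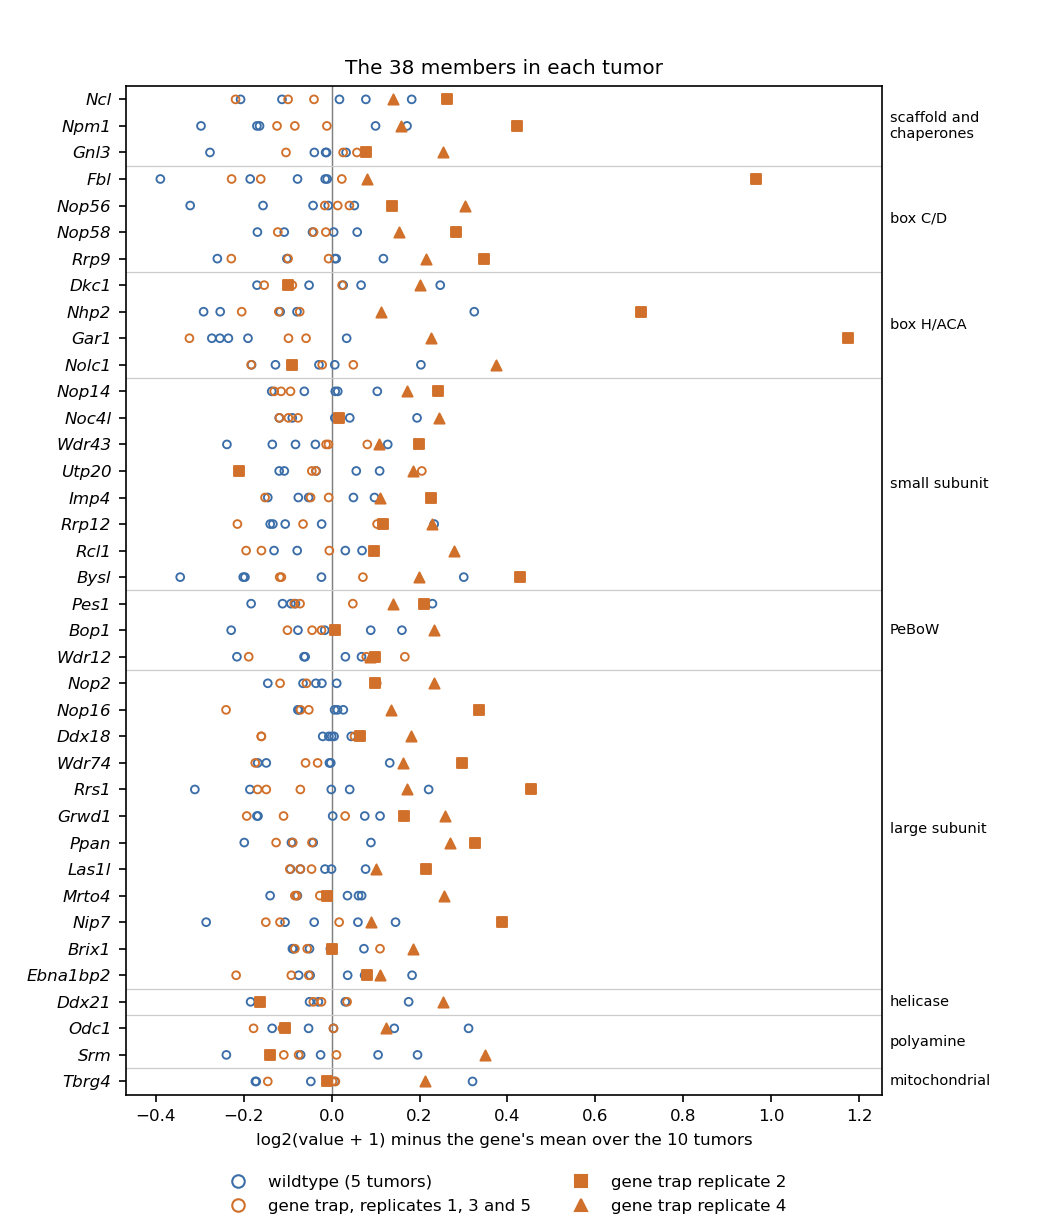
Deviation of each member in each tumor from the gene's mean over the 10 tumors, on the log2(value + 1) scale (horizontal axis), with members on the vertical axis grouped by role. Open circles are wildtype tumors (blue) and gene trap replicates 1, 3 and 5 (orange), the square is gene trap replicate 2 and the triangle gene trap replicate 4. The triangles lie right of 0 for all 38 members, and the squares lie far right for *Fbl*, *Nhp2* and *Gar1*.

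The range of a member over the tumors was narrow. The ratio of the highest to the lowest tumor had a median of 1.38 and was under 1.5 for 28 members, and it was over 2 for *Fbl* (2.56) and *Gar1* (2.83). On the log2 scale the median SD of a member was 0.15, where the median over all genes was 0.25. A low spread was not particular to the members. The median standard error of a difference was 0.094 for members and 0.16 over all genes. It was 0.088 for the other ribosome biogenesis genes and 0.095 for the other MYC target genes described below. *Brix1*, a protein of large subunit assembly, had the smallest SD, 0.094. Pairs of members varied in parallel, with a median Pearson r of 0.53 over the 703 pairs and a positive r for 649 of them, while the median over all pairs of genes was -0.004. The median was 0.53 after the mean of each genotype was subtracted and 0.59 without gene trap replicate 2. These correlations rest on 10 tumors and on values that share library and scaling, and they are given as a description. Under 3 other scalings the median over member pairs was 0.40 to 0.46, and scaling to the column total raised that over all pairs of genes to 0.20.

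The members also varied with *Myc*. Over the 10 tumors the Pearson r of a member with *Myc* had a median of 0.57 and was positive for 35 members, and Spearman's rho had a median of 0.58 and was positive for 36. Over all tested genes apart from *Myc* the median r was -0.01, and 48.8% were positive. The largest r belonged to *Nop14* (0.84), *Noc4l* (0.83), *Rrs1* (0.80), *Bop1* (0.79) and *Bysl* (0.78), which act in the assembly of the small (*Nop14*, *Noc4l* and *Bysl*) or the large subunit (*Rrs1* and *Bop1*). It was negative for *Utp20* (-0.19), *Dkc1* (-0.04) and *Wdr12* (-0.03). Of the 6 members with an E-box, r was 0.71 for *Grwd1*, 0.60 for *Nop2*, 0.59 for *Pes1*, 0.54 for *Imp4*, 0.46 for *Wdr43* and -0.19 for *Utp20*. These were not compared with the members without an E-box. Within genotypes the median r with *Myc* was 0.56. Leaving out the tumors with the most extreme *Myc*, gene trap replicate 4 and wildtype replicate 1, gave 0.48 over 8 tumors. Scaling to the column total gave 0.33. The tumors were not ordered by *Myc* alone, since wildtype replicate 4 had 1556 *Myc* counts and the lowest median over the members. Summed values of 7 proliferation markers, from *Mki67* to *Pcna*, were 42103 in gene trap replicate 4 and 27735 in gene trap replicate 2, and highest in wildtype replicate 5 (42400), where the median over the members was -0.05 as deposited and 0.076 when scaled to the column total. Summed epithelial markers were 97410 in gene trap replicate 2, 87253 in gene trap replicate 4 and 93983 in wildtype replicate 4. The part of tumor cell content or proliferation in the common pattern was not tested.

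**Figure D3:**
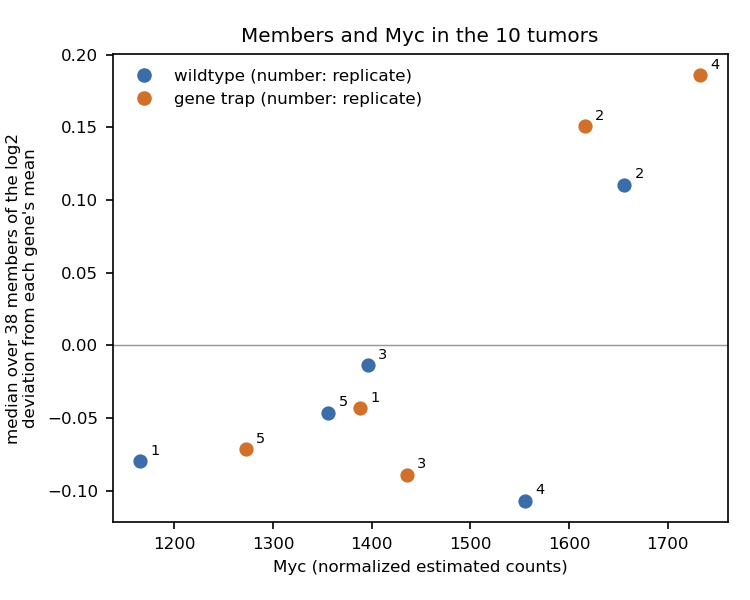
Median over the 38 members of the log2 deviation from each gene's mean (vertical axis) against the *Myc* value in normalized estimated counts (horizontal axis), with 1 point per tumor (blue wildtype, orange gene trap, numbered by replicate). Wildtype replicate 2 and gene trap replicates 2 and 4 lie at the upper right, and wildtype replicate 4, with 1556 *Myc* counts, lies lowest.

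Other genes of ribosome biogenesis were examined to see whether they did the same. Of 116 further genes of this process, 91 (78.4%) had a higher mean in gene trap tumors, as did 51.4% of all genes. Among the 116, 0 had an adjusted p under 0.05 (0% of all genes), and the median difference was 0.05. An unadjusted p under 0.05 was found for 3 (2.28% of all genes), and all 3 were higher in gene trap tumors. *Sdad1*, a factor of large subunit export, had 960, 1002, 887, 916 and 906 in wildtype and 1036, 1035, 1010, 1067 and 1014 in gene trap replicates 1 to 5. It was the only one of these genes without overlap between the genotypes, as were 0.528% of all genes, and the difference was small (0.14, interval 0.004 to 0.29, unadjusted p = 0.0445, adjusted p = 0.9997). *Nmd3*, the export adapter of the large subunit, differed by 0.16 (unadjusted p = 0.0477). *Znhit6*, an assembly factor of box C/D particles, differed by 0.30 (unadjusted p = 0.0492), with 763 in gene trap replicate 2 and 390 to 506 elsewhere, and by 0.16 (unadjusted p = 0.0749) without that tumor. The smallest p values on the lower side were those of *Noc2l* (-0.09, unadjusted p = 0.273), the exosome subunit *Exosc3* (-0.09, unadjusted p = 0.343) and the snoRNP assembly factor *Nufip1* (-0.07, unadjusted p = 0.402). The tumor medians of these genes had the same high tumors as the members, with 0.11 in gene trap replicate 4, 0.08 in gene trap replicate 2 and 0.05 in wildtype replicate 2.

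Of 37 MYC target genes outside ribosome biogenesis, 26 (70.3%) had a higher mean in gene trap tumors, as did 51.4% of all genes. None had an unadjusted p under 0.05 (2.28% of all genes), and the median difference was 0.02. The smallest p values belonged to hexokinase 2 (*Hk2*, 0.29, unadjusted p = 0.101), the translation factor *Eif4a1* (0.13, unadjusted p = 0.191) and the purine synthesis enzyme *Ppat* (0.11, unadjusted p = 0.192) among the higher genes. Among the lower genes they belonged to *Slc3a2* (-0.13, unadjusted p = 0.281) and *Slc7a5* (-0.20, unadjusted p = 0.306), which together form an amino acid transporter, and to cyclin D2 (*Ccnd2*, -0.11, unadjusted p = 0.563). In these genes too gene trap replicate 4 had the highest median deviation, 0.19, while that of gene trap replicate 2 was -0.003.

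The high values of gene trap replicate 2 were unequal among the members. The ratio of this tumor to the mean of the other 9 was 2.46 for *Gar1*, 2.10 for *Fbl* and 1.70 for *Nhp2*, 1.41 or less for the other members, and below 0.90 for *Srm* (0.89), *Ddx21* (0.88) and *Utp20* (0.85). *Gar1*, *Fbl* and *Nhp2* are among the 5 members with the shortest transcripts, of 1042 to 1271 bases. The other 2 short members, *Wdr74* and *Mrto4*, had ratios of 1.25 and 0.99. Across the 38 members Spearman's rho between transcript length and the deviation in this tumor was -0.28, as a description across genes that share a tumor. It was not the largest of the 10 tumors, since rho was 0.37 in wildtype replicate 5 and 0.36 in gene trap replicate 1. With GC content in place of length, rho was 0.087 in gene trap replicate 2, -0.62 in wildtype replicate 5 and 0.45 in gene trap replicate 4. Length was taken from the longest transcript in the annotation, which need not be the one expressed. *Gar1* and *Fbl* exceeded every other tumor by over 1.5 fold in gene trap replicate 2, as did 3.30% of all genes. What sets this tumor apart was not tested.

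**Figure D4:**
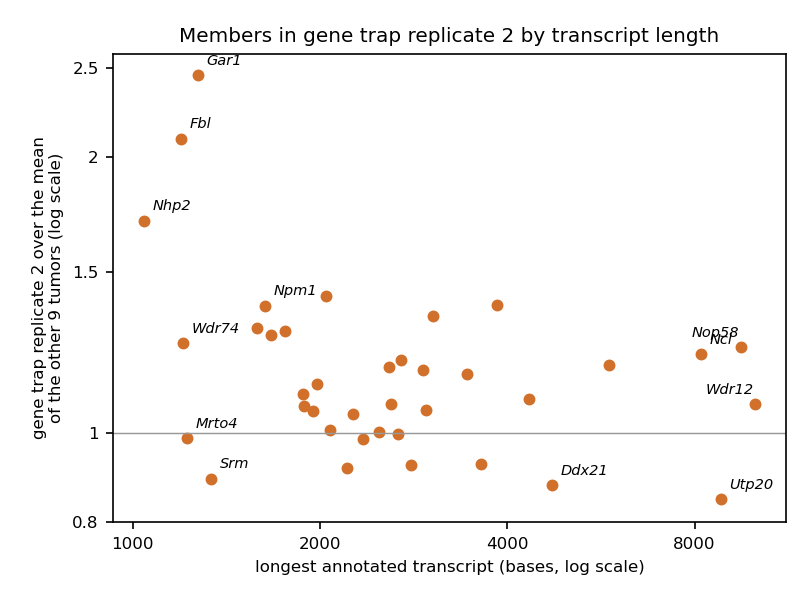
Ratio of gene trap replicate 2 to the mean of the other 9 tumors (vertical axis, log scale) against the length of the longest annotated transcript in bases (horizontal axis, log scale) for the 38 members, with 1 point per member. *Gar1*, *Fbl* and *Nhp2*, with short transcripts, lie highest, while *Mrto4* and *Srm*, which are about as short, lie below 1.

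Several members have processed pseudogenes, which are copies of the mRNA elsewhere in the genome, and reads of the gene can be assigned to these copies. A search of annotated pseudogenes found 30 that matched 10 members with at least 90% identity over at least 50% of their length. For *Npm1*, 7 pseudogenes together held 7633, 9780, 7549, 7210 and 9219 in wildtype and 8465, 7457, 8327, 9246 and 7860 in gene trap replicates 1 to 5. They made up 34.4% of the sum of gene and pseudogenes in gene trap replicate 2 and 43.9% to 45.5% in the other tumors. The 9 pseudogenes of *Odc1* held 22.9% in gene trap replicate 2 and 31.5% to 34.2% elsewhere, and the 3 of *Nop56* held 7.81% there and 15.5% to 19.5% elsewhere. This share was lowest in gene trap replicate 2 for 7 of the 10 members, and 19 of the 30 pseudogenes had their lowest value in that tumor, as did 21.8% of all genes. With pseudogenes added, *Npm1* differed between genotypes by 0.09 (interval -0.14 to 0.32) and *Odc1* by -0.14 (interval -0.35 to 0.07). For *Fbl* the 1 matching pseudogene was high where the gene was, with 926 in gene trap replicate 2 and 420 to 575 elsewhere. Values of these 10 members, which also include *Ddx18*, *Mrto4*, *Pes1*, *Wdr12*, *Gar1* and *Ncl*, are therefore uncertain to the extent that reads were split. For *Gar1* and *Ncl* the pseudogene share was at most 2.51% and 0.083%.

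**Figure D5:**
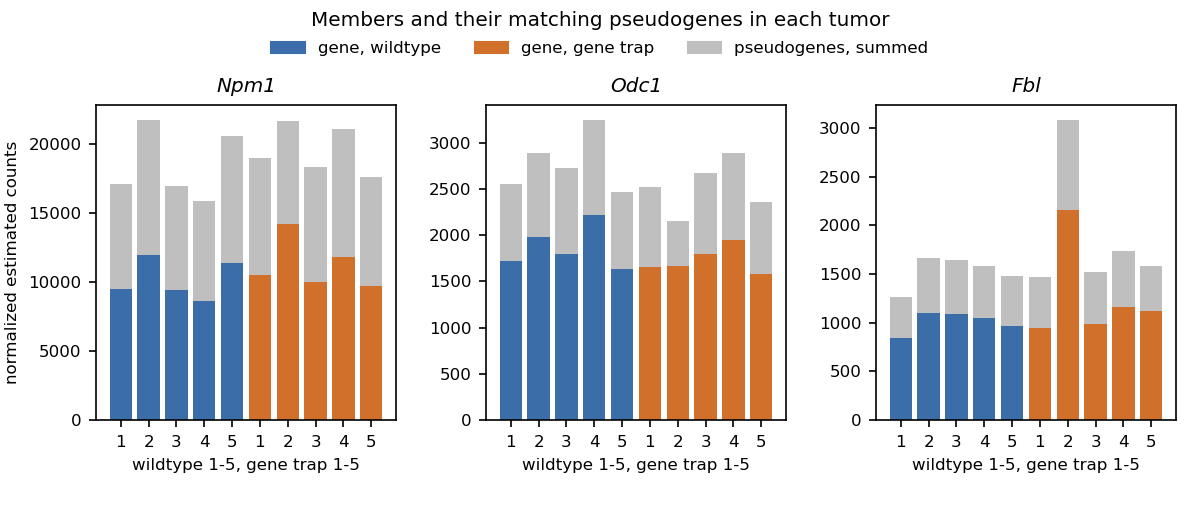
Normalized estimated counts (vertical axis, from 0) of *Npm1*, *Odc1* and *Fbl* (colored, blue wildtype and orange gene trap) and of their matching pseudogenes summed (grey) in each of the 10 tumors (horizontal axis). The grey part of *Npm1* is 34.4% of the bar in gene trap replicate 2 and 43.9% to 45.5% in the other tumors.

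Other shared features were examined because the *Resf1* protein has been linked to G-quadruplexes, structures that form in DNA or RNA with repeated runs of G. A motif of 4 runs of at least 3 G, separated by loops of at most 7 bases, was searched on both strands of the longest transcript. Quadruplexes with only 2 layers of G, which form from shorter runs and are also linked to RESF1, are not found by this motif, so the shares below do not cover them. It occurred in 7 members (18.4%), *Ncl*, *Bysl*, *Ddx18*, *Mrto4*, *Odc1*, *Srm* and *Tbrg4*, and in 39.9% of 14545 tested coding genes. The members had shorter transcripts, with a median of 2419 bases against 3118, and a similar GC content, with a median of 51.2% against 50.2%. The median difference between genotypes was 0.02 for the 7 members with the motif and 0.08 for the 31 without it. Members lay on 18 chromosomes, with *Dkc1* and *Las1l* on the X chromosome. Another gene overlapped 11 members on the opposite strand, which matters for counting if strand was not used. These were *Gnl3*, *Nop56*, *Rrp9*, *Dkc1*, *Nhp2*, *Nop14*, *Imp4*, *Bysl*, *Pes1*, *Bop1* and *Wdr12*. Per kilobase of the longest transcript the mean level over the 10 tumors ranged from 128 for *Wdr12* to 6556 for *Npm1*, followed by *Nhp2* at 1639. This order depends on the length used, which was 10012 bases for *Wdr12*, 8202 for *Ncl* and 1042 for *Nhp2*. The longest transcript need not be the one expressed.

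The remaining marker lists did not pass the test either. Of markers of myoepithelium, 0 of 4 were higher in gene trap tumors (median difference -0.31, summed value 4945 to 7046 in wildtype and 4050 to 5672 in gene trap tumors). Of fibroblast markers, 5 of 5 were higher, with sums of 38198 to 81985 and 50394 to 117683. Of 7 proliferation markers 1 was higher, with sums of 27443 to 42400 and 27735 to 42103. Of the markers with a row in the table, 0 of 3 endothelial, 1 of 4 macrophage, 0 of 2 lymphocyte, 0 of 2 adipocyte, 3 of 5 epithelial and 2 of 2 skeletal muscle markers were higher. Over all genes 51.4% were higher. No marker had an unadjusted p under 0.05 (2.28% of all genes). The deposited values held no zeros for any gene, so a marker value above 0 does not show that its cell type was present. Their part in the values of the members was not tested.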

How the data were processed

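Total RNA of mouse mammary tumors was sequenced from stranded libraries (TruSeq Stranded Total RNA, Trizol extraction). The authors deposited estimated counts per gene, a signal already normalized by the median ratio method. The submitters' processing notes name STAR (version 2.7.8a), Partek, DESeq2 and the build mm39. The annotation and the use of strand in counting are not given in the sources used here. Of 16 columns, 10 were matched to tumors by name (5 per genotype), and 6 columns that matched no label were not used. Values were fractions without zeros, so whole reads and depth could not be recovered, and column totals were 31995100 to 42153600.

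Of the 23609 gene IDs, 22899 had a symbol. A pseudocount of 1 was added before taking log2, which makes changes of low genes look smaller. Genes whose mean reached 10 (21034 genes) entered limma (version 3.58.1, R 4.3.3) with a variance trend, no factor but genotype, and p-values adjusted over all of these genes by the Benjamini-Hochberg method. For single values an exact permutation test (two-sided) used all 252 arrangements of 5 and 5 tumors, for which the smallest possible p is 0.00794. The calculation was tested on simulated data with changes far larger than those of the members and with noise independent between genes. That test does not show whether differences as small as those of the members could be found. The labels describe the replicates as separate tumors, and equal replicate numbers do not mark the same animal.

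Values in every tumor are given for *Resf1*, *Myc*, the lead genes *Ncl*, *Npm1*, *Gnl3*, *Fbl*, *Dkc1*, *Odc1* and *Srm*, and the 3 members with the largest and the 3 with the most negative difference. Of the other lists, the 3 genes with the smallest p in each direction are named, and further examples were chosen with their values in view. The members and all lists were chosen with earlier results of these data known. Transcript length, GC content, pseudogenes and overlaps came from GENCODE mouse release 21, and pseudogenes were matched with BLAST (version 2.17.0). That annotation is of GRCm38 and the counts of mm39, so none of its coordinates are given. Promoter windows are from a separate RefSeq table and carry its GRCm38.p6 coordinates. One further gene of the MYC target list was not matched.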

Additional observations from a re-analysis of the deposited data

Results flagged for a closer look

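For the 38 members, *Resf1* and *Myc*, each genotype's 5 tumors were checked for a value whose gap to its nearest neighbor took over 0.71 of the range of the group. This was found in 10 of 80 groups, where chance gives about 1 in 20, or 4 groups. The members share tumors and vary together, so these are not 10 separate events. Gene trap replicate 2 held 3 of them, with *Fbl* at 2157 (943 to 1166 in the other gene trap tumors), *Nhp2* at 2719 (1449 to 1806) and *Gar1* at 1099 (389 to 569). Gene trap replicate 4 was far above the others for *Mrto4*, at 747 (590 to 621), and for *Srm*, at 1360 (969 to 1076). Wildtype replicate 2 was far above for *Gar1*, at 498 (403 to 426), *Rrp12*, at 710 (548 to 595), and *Pes1*, at 3393 (2549 to 2734). Values far below the others were those of *Gnl3* in wildtype replicate 4, at 1798 (2120 to 2228), and of *Wdr12* in gene trap replicate 3, at 1124 (1354 to 1439).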

How the results depend on the processing

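No alternative gave a gene with an adjusted p under 0.05. Sign changes were counted only for the medians, *Resf1*, *Myc* and the members given in every tumor. Of these recomputed values, 12 changed sign. The other members were not in that count. Members with a higher mean in gene trap tumors numbered 33 in the main fit and 23 without gene trap replicate 4. Values that kept their sign could still shrink, as *Fbl* (0.064) and *Gar1* (0.12) did without gene trap replicate 2. With 1 tumor left out at a time, members with an unadjusted p under 0.05 numbered 0 to 3 of 38 (the 3 were *Wdr43*, *Nop56* and *Bysl*, without wildtype replicate 2). Other ribosome biogenesis genes numbered 0 to 8 of 116 (8 without wildtype replicate 2). Over all genes such a p was found for 308 of 21052 (without wildtype replicate 4) to 692 of 21072 (without gene trap replicate 4). Without wildtype replicate 2 it was found for 600 of 21040. The difference ranged from -0.0060 to 0.12 for *Myc*, from -0.046 to 0.074 for *Ncl*, from -0.071 to 0.065 for *Srm* and from -0.10 to 0.0085 for *Dkc1*. The member count was 1 (*Nop56*) with a pseudocount of 10, a mean of at least 50, quantile normalization or weights per tumor. Over all genes the counts under these settings were 490 of 21034, 326 of 16174, 519 of 21034 and 580 of 21034. The count of other ribosome biogenesis genes was 1 with scaling to the column total and 1 without a variance trend, against 3. The counts over all genes were 304 and 576 of 21034, against 479 in the main fit. *Ncl* was -0.010 under scaling to the column total and -0.036 with weights per tumor, and *Srm* -0.013 under scaling to the column total. The median r of members with *Myc* was 0.33 under scaling to the column total. The causes of these changes were not tested. The scalings of the correlations and the addition of pseudogenes were chosen after seeing the data. With the replicate number as a block, 1 member (*Bysl*) and 1 other ribosome biogenesis gene had an unadjusted p under 0.05. So did 426 of all 21034 genes. Tumors with the same number did not deviate together, with correlations of 0.10, -0.003, -0.16, 0.15 and -0.14 for numbers 1 to 5. Whether such tumors shared a litter or batch was not tested and cannot be told from these correlations. With 5 tumors per genotype and unknown depth, small differences could not be resolved, as the median standard error of a member was 0.094.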
